A study of Homo sapiens with 9 samples.

Results

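The genes described here are 39 genes of glycolysis and of the cellular response to low oxygen, taken by symbol from the deposited tables. They were 16 glycolytic enzymes, 4 glucose or lactate transporters, 3 regulators of glycolytic flux, 3 genes of oxygen sensing, 2 collagen hydroxylases and 11 other targets of the hypoxia response. All 39 were found among 24672 genes in the tables, and 38 had enough reads to be tested, CA9 being the exception. They were measured by polyA-selected, stranded RNA sequencing in EPC2, a line of human esophageal epithelial cells made immortal with telomerase reverse transcriptase.

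There were 3 groups of 3 libraries. The ALI control cells carried a non-silencing control (NSC) and had been differentiated at the air-liquid interface (ALI), a culture on a porous support whose upper surface is exposed to air. The ALI silenced cells had SPINK7, an inhibitor of serine proteases, silenced and were differentiated in the same way. The monolayer control cells carried the same NSC and were an undifferentiated monolayer, for which the labels give no calcium level or day. All cells were fed keratinocyte serum-free medium with 1 ng/mL epidermal growth factor, 50 ug/mL bovine pituitary extract, penicillin and streptomycin. ALI cells were grown submerged in 0.09 mM calcium, switched to 1.8 mM calcium on day 2, exposed to air on day 7 and harvested on day 14. The labels describe 1 silenced population and no other, so loss of SPINK7 and the silencing construct itself cannot be told apart. Nor do they say whether a group's 3 libraries were cultured separately; p-values then reflect only how far these libraries varied, possibly for technical reasons. Calcium, air exposure and time in culture were parts of the same ALI protocol and cannot be told apart either.

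Glycolysis splits glucose into pyruvate through a chain of enzymes, most of which exist as several isozymes coded by separate genes, and lactate dehydrogenase turns pyruvate into lactate for export. Hypoxia-inducible factor (HIF), a dimer of an alpha subunit such as HIF1A with ARNT, induces many of these genes when oxygen is scarce. In the presence of oxygen the prolyl hydroxylases (the EGLN proteins) mark the alpha subunit for removal by VHL, so HIF activity is set largely by protein stability and not by HIF1A messenger RNA. In stratified epithelium in tissue the upper layers lie farther from the supply of nutrients and oxygen than the basal layer. At the ALI, by contrast, the upper surface is exposed to air.

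Total counts per library ran from 7641960 to 14009746. SPINK7, the targeted gene, was at 20.9, 38.6 and 32.7 CPM (counts scaled to the size of the library) in the ALI silenced libraries against 229, 261 and 225 CPM in the ALI controls. All 8 genes of an esophageal epithelial identity list, KRT5, TP63 and CDH1 among them, had reads in every library. In the monolayer some were near the floor: KRT13 at 0.213 to 0.607 CPM, KRT4 at 0.506 to 1.28 CPM, EPCAM at 0.304 to 1.49 CPM and SOX2 at 0.958 to 2.83 CPM. Of 8 leukocyte genes 3 to 5 were at 0 in each library and PTPRC was at 0 in all, while CD68 stood between 15.4 and 87.0 CPM. Endothelial genes summed to 10.05 CPM at most, with VWF leading, and fibroblast genes to 11.6 to 185 CPM, nearly all COL1A1. ALI library 2 stood apart in both ALI groups: its counts differed from those of libraries 1 and 3 with a chi-square per degree of freedom of 71.3 to 160, against 16.8 and 25.5 between libraries 1 and 3. Counts of calls are given with and without both. Monolayer libraries 2 and 3 were much closer to each other (1.91) than either was to monolayer library 1 (32.0 and 34.2).

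The core letters of the element that HIF binds are ACGTG or GCGTG, read here on both strands, and in the palindrome CACGTG both strands count. The bases before the transcription start of 5 genes are shown because these are the members whose levels rose on differentiation, together with the collagen hydroxylases, which fell. They come from the RefSeq promoter table (GRCh38.p14), 5′ to 3′ on the gene's strand, with core matches in capitals (on the opposite strand ACGTG reads CACGT). Each covers 250 bases; where a gene had several starts, the most upstream was taken. The windows are chr2:74833877-74834126 (+) for HK2, chr14:33951075-33951324 (-) for EGLN3, chr2:86441121-86441370 (+) for KDM3A, chr10:73096867-73097116 (-) for P4HA1 and chr3:146161185-146161434 (-) for PLOD2.
HK2: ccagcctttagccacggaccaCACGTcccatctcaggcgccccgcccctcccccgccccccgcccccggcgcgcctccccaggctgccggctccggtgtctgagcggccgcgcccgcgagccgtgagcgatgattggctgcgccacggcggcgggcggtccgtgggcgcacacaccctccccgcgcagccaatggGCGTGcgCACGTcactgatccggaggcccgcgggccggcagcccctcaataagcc
EGLN3: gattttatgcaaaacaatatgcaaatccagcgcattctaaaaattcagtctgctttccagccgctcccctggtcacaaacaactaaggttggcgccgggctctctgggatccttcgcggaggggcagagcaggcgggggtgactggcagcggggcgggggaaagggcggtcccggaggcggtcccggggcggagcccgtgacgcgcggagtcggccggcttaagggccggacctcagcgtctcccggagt
KDM3A: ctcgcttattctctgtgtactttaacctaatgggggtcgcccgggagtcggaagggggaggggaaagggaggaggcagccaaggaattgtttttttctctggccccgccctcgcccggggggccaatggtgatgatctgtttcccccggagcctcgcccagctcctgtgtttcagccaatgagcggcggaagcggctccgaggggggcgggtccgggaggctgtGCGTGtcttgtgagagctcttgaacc
P4HA1: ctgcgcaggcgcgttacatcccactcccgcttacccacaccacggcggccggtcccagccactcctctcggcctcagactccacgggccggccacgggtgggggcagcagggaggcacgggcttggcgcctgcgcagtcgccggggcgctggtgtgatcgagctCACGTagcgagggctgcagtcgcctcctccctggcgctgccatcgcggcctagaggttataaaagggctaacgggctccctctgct
PLOD2: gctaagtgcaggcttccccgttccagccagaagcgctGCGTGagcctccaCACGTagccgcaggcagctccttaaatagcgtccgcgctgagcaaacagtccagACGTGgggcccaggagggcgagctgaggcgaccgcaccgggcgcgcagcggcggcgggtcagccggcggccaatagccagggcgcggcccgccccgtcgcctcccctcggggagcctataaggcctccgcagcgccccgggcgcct

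The HK2 and PLOD2 windows each held 3 matches and those of KDM3A and P4HA1 held 1. In HK2 the matches closest to the start began 55 and 48 bases before it, a GCGTG followed closely by an ACGTG on the other strand. No match was found in the EGLN3 window, which says only that these letters are not in it. Of the members, 34 had windows in the table, and 5 did not (SLC2A3, SLC16A1, VEGFA, NDRG1 and BNIP3L). Over windows of 250 bases before to 50 after each start, either core was present in 44 of 64 member windows (68.8%) and in 48.4% of all 35116 windows. ACGTG was in 40.6% of member windows against 21.4% of all, and GCGTG in 43.8% against 36.5%. These shares describe letters and are no evidence that a factor was bound.

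The first comparison set ALI control against monolayer control, both of them NSC cells, and asks how these genes differ between differentiated and undifferentiated cells. HK2, EGLN3 and KDM3A rose on differentiation, and ENO2, PLOD2, PFKFB4, SLC16A3, P4HA1, SLC2A3, PFKP and PFKFB3 fell. The changes ran from 7.60-fold higher (EGLN3) to 6.27-fold lower (ENO2). Thus 11 of the 38 tested members passed an adjusted p of 0.05, against 40.5% of all 12806 genes tested. The 3 that rose stand beside 20.3% of all genes, and the 8 that fell beside 20.2%. The median log2 fold change of the members was -0.09, and that of all genes was 0.03. For 12 members the 95% interval of the fold change lay within 2-fold in either direction, as for 27.3% of all genes. The share of members that passed, 28.9%, was below that of all genes, and this difference was not tested. RNA was taken from whole cultures, so fewer cells of a type and less RNA per cell cannot be told apart.

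**Figure D1:**
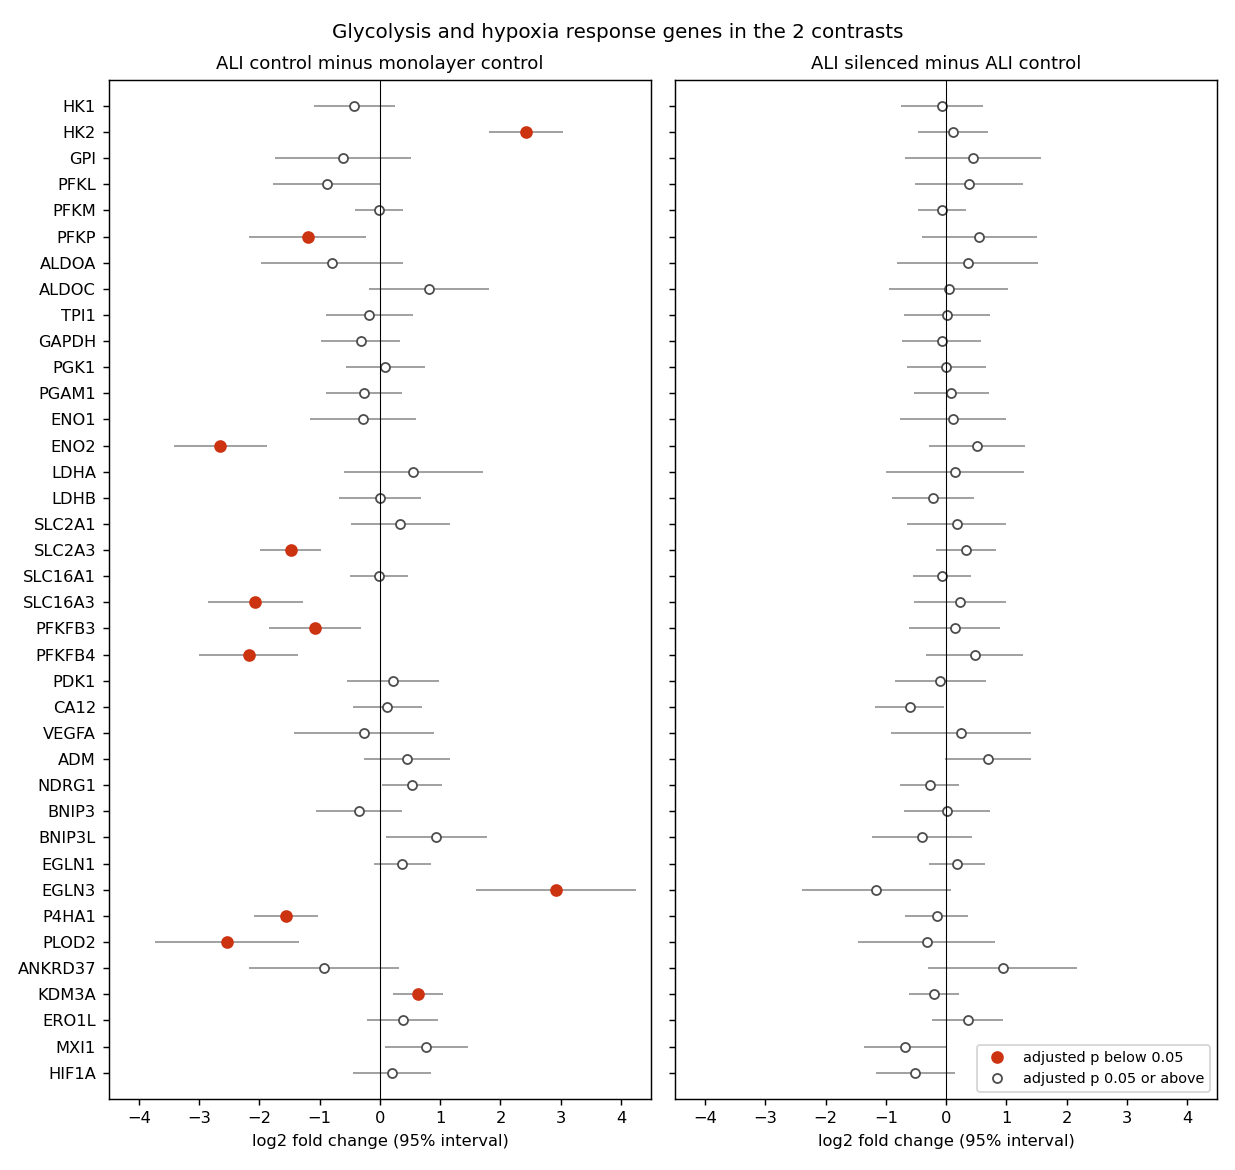
Fitted log2 fold change (points) with its 95% interval (lines) for the 38 tested genes, ALI control minus monolayer control on the left and ALI silenced minus ALI control on the right. Filled points passed an adjusted p of 0.05: 11 on the left, between -2.65 (ENO2) and 2.93 (EGLN3), and none on the right.

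Hexokinase traps glucose in the cell, and HK2 is the inducible isozyme of this step. HK2 (chr2:75059782-75120481 in hg19) was at 25.5, 16.9 and 13.4 CPM in the monolayer libraries and at 111, 77.2 and 111 CPM in the ALI controls. The groups did not overlap, and every ALI control library was well above the highest monolayer library. Its log2 fold change was 2.42 (SE 0.28, adjusted p = 0.000119). In the ALI silenced libraries HK2 stood at 119, 94.3 and 109.9 CPM, within or near the range of the ALI controls.

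ENO2, the neuronal enolase isozyme, went the other way. It was at 7.36, 7.49 and 7.02 CPM in the monolayer and at 1.07, 0.883 and 1.48 CPM in the ALI controls, where it rests on 29 reads over 3 libraries. The monolayer values lay close together, all above every ALI value. Its log2 fold change was -2.65 (SE 0.34, adjusted p = 0.00027). PFKP, the platelet isozyme of phosphofructokinase, the main control point of the pathway, was at 175, 229.7 and 218 CPM in the monolayer and 106, 36.5 and 129 CPM in the ALI controls. Its fall of 1.20 on the log2 scale (SE 0.43, adjusted p = 0.0487) sat at the threshold. The call was lost in 9 of 18 alternatives, with adjusted p from 0.0514 to 0.128. Among these were the fits without ALI control library 1 (0.0801) or 2 (0.0572), ALI silenced library 3 (0.0763) and monolayer library 1 (0.0788), 2 (0.128) or 3 (0.114).

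The other 13 glycolytic enzymes did not pass the test. GAPDH, the most abundant of the 39 by length-scaled level in all groups, was at 2447, 3470.2 and 3361 CPM in the monolayer and 2402, 1992 and 3033 CPM in the ALI controls, ranges that overlap. Its log2 fold change was -0.32 (95% interval -0.98 to 0.34, adjusted p = 0.404). LDHA, which makes the muscle-type subunit of lactate dehydrogenase, was at 835, 1066 and 1093 CPM in the monolayer. In the ALI controls it was at 1955, 630.0 and 1807 CPM, so that 2 libraries lay above and 1 below every monolayer library. LDHA had a change of 0.55 on the log2 scale (SE 0.52, adjusted p = 0.413). Leaving out ALI control and ALI silenced library 2 gave 0.92 (adjusted p = 0.00261). PGK1, TPI1, PGAM1, ENO1, PFKM, LDHB and HK1 had log2 fold changes between -0.43 and 0.09, and GPI, ALDOA and PFKL between -0.88 and -0.61. For PFKL, the liver isozyme, the groups did not overlap (138, 166 and 158 against 93.5, 37.0 and 120.3 CPM), with an adjusted p of 0.106. It passed with the replicate number as a block (0.0465) and without ALI control library 3 (0.0483). ALDOC, the brain aldolase, had a log2 fold change of 0.81 (adjusted p = 0.171), and passed without ALI control library 2 (1.20, adjusted p = 0.0145). Several of these enzymes, GAPDH among them, have many processed pseudogenes, and how reads shared with such copies were assigned is not given in the sources used here.

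Of the 4 transporters, SLC2A3 and SLC16A3 fell and SLC2A1 and SLC16A1 did not pass. SLC2A3 codes for GLUT3, a high-affinity glucose transporter, and was at 27.8, 34.6 and 40.0 CPM in the monolayer and at 13.4, 13.1 and 10.2 CPM in the ALI controls. All 3 ALI control libraries were well below the lowest monolayer library, and the log2 fold change was -1.48 (SE 0.23, adjusted p = 0.000723). It may share reads with its near-identical copy SLC2A14. SLC16A3, the lactate exporter MCT4, was at 257, 334 and 307 CPM in the monolayer and 86.8, 37.6 and 90.2 CPM in the ALI controls. All 3 ALI values lay far below the monolayer values (log2 fold change -2.06, SE 0.36, adjusted p = 0.00147). SLC2A1, which codes for GLUT1, the main glucose transporter of epithelial cells, was at 703, 348 and 328 CPM in the monolayer and 697, 363 and 681 CPM in the ALI controls. Each group of SLC2A1 thus held both high and low libraries (0.34, 95% interval -0.48 to 1.16, adjusted p = 0.486). SLC16A1, the lactate carrier MCT1, had a log2 fold change of -0.01 (95% interval -0.49 to 0.47).

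Of the flux regulators, both members of the PFKFB family fell. These bifunctional enzymes set the level of fructose 2,6-bisphosphate, which activates phosphofructokinase. PFKFB4 was at 33.1, 32.6 and 34.8 CPM in the monolayer and at 7.37, 3.91 and 10.8 CPM in the ALI controls (log2 fold change -2.18, SE 0.37, adjusted p = 0.00131). PFKFB3 was at 52.1, 61.7 and 62.4 CPM against 36.7, 14.5 and 32.3 CPM. No ALI control library reached the monolayer range for either gene. The change of PFKFB3 was -1.08 (SE 0.34, adjusted p = 0.0295), and its call was lost without monolayer library 1 (0.0556), 2 (0.0857) or 3 (0.0844), and with monolayer libraries 2 and 3 summed (0.0832). PDK1, a kinase that keeps pyruvate out of mitochondrial oxidation, was at 17.0, 13.8 and 13.1 CPM in the monolayer and at 22.6, 9.59 and 18.7 CPM in the ALI controls. The groups overlapped (0.21, SE 0.34, adjusted p = 0.64), but PDK1 passed at 0.50 (adjusted p = 0.0493) when ALI library 2 was left out of both groups.

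**Figure D2:**
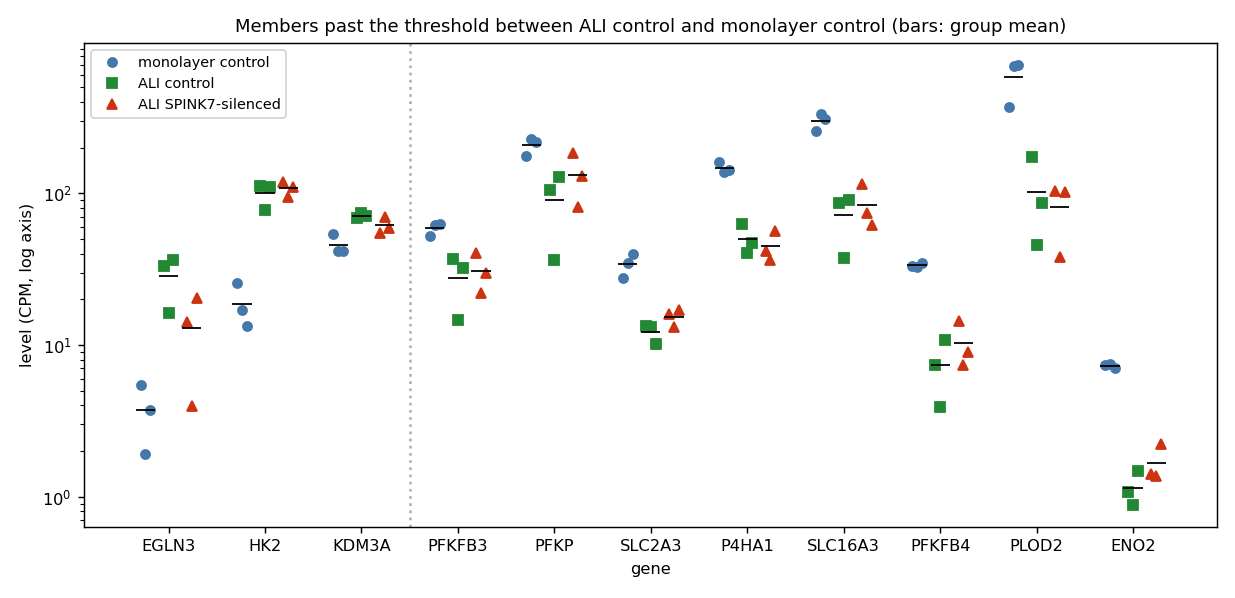
Level (CPM, log axis) in each of the 9 libraries of the 11 genes that passed between ALI control and monolayer control, with the group mean as a bar; the dotted line parts the 3 that rose from the 8 that fell. Monolayer libraries (circles) do not overlap the ALI controls (squares) for any of the 11, and ALI silenced libraries (triangles) are shown for reference.

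Oxygen sensing was represented by HIF1A and by 2 of its hydroxylases. EGLN3 (chr14:34393421-34420284 in hg19), itself a target of HIF, was at 5.45, 1.92 and 3.72 CPM in the monolayer and at 33.2, 16.1 and 36.2 CPM in the ALI controls. The lowest ALI control library was above the highest monolayer library. The change, 2.93 on the log2 scale (SE 0.60, adjusted p = 0.00379), was greater in size than that of any other member. EGLN1, the main hydroxylase of HIF1A in most cells, did not pass (0.37, SE 0.21, adjusted p = 0.181). HIF1A was at 455, 395 and 407 CPM in the monolayer and 429, 696 and 322 CPM in the ALI controls, where library 2 was the highest and library 3 the lowest of these 6. The change of HIF1A was 0.20 (95% interval -0.45 to 0.85, adjusted p = 0.602). HIF protein was not measured.

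The collagen hydroxylases fell together. P4HA1, a catalytic subunit of the prolyl 4-hydroxylase that stabilises the collagen helix, was at 161, 138 and 144 CPM in the monolayer and at 62.6, 40.4 and 47.1 CPM in the ALI controls (log2 fold change -1.56, SE 0.24, adjusted p = 0.000722). PLOD2, a lysyl hydroxylase for collagen cross-links, was at 372, 689.7 and 706 CPM in the monolayer and at 172, 45.7 and 86.8 CPM in the ALI controls. Monolayer library 1 was low and ALI control library 1 high within their groups for PLOD2, yet they did not overlap (-2.54, SE 0.54, adjusted p = 0.00446). Without ALI control library 1 the change was -3.15. The fibroblast gene COL1A1 was also highest in a monolayer library, at 184 CPM in library 1 against 51.3 and 48.2 CPM in the others and 11.6 to 48.3 CPM in the ALI controls. COL3A1 was at most 0.405 CPM anywhere, and the part of other cell types in this result was not tested.

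Among the other 10 tested targets of the hypoxia response, KDM3A, a histone demethylase, was the member that rose. It was at 53.6, 41.5 and 41.9 CPM in the monolayer and at 68.6, 73.8 and 70.5 CPM in the ALI controls. The shift was small and the ALI controls close together (0.63, SE 0.19, adjusted p = 0.0224). The call was lost without monolayer library 2 (0.1004) or 3 (0.0976) and with the pair summed (0.0982). NDRG1, a stress-response gene of differentiating epithelia, was at 626, 568 and 543 CPM in the monolayer and 868, 714 and 933 CPM in the ALI controls. These groups did not overlap either, but the adjusted p was 0.0785 (log2 fold change 0.53). NDRG1 passed in 3 of 18 alternatives: without ALI control library 2 (0.0272), without both ALI libraries numbered 2 (0.0103) and by DESeq2's Wald test (0.00983). MXI1, an antagonist of MYC, also did not overlap (42.6, 34.7 and 35.0 against 60.01, 82.1 and 49.8 CPM), at 0.77 and an adjusted p of 0.0688. It passed in 4 of 18 alternatives. Among them were the fit of only the 2 groups of the contrast (0.0370) and DESeq2's Wald test (0.0427). The others left out ALI silenced library 2 (0.0219), a library of neither group in this contrast, or both ALI libraries numbered 2 (0.0204). In all 14 members had groups that did not overlap, the 11 that passed with PFKL, NDRG1 and MXI1, where the share over all genes was 57.3%.

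VEGFA, the angiogenic growth factor, was at 112, 77.5 and 80.9 CPM in the monolayer and 52.0, 127 and 45.7 CPM in the ALI controls. In the ALI controls 1 library was above and 2 were below all monolayer libraries, and the size of the change rests on library 2 (-0.27, adjusted p = 0.708, but -0.88, adjusted p = 0.00227, when ALI library 2 was left out of both groups). BNIP3 and BNIP3L act in the removal of mitochondria. BNIP3 was at 38.2, 46.8 and 54.2 CPM against 41.8, 38.2 and 29.9 CPM (-0.34, adjusted p = 0.416). BNIP3L was at 147, 136 and 141 CPM against 226, 447 and 138 CPM (0.94, adjusted p = 0.0694). It passed without ALI control library 3 (1.25, adjusted p = 0.0134) and by DESeq2's Wald test (0.0346). CA12, a carbonic anhydrase at the cell surface, was at 136, 115 and 114 CPM against 133, 90.1 and 174 CPM (0.12, adjusted p = 0.729). CA9, its relative often used as a marker of hypoxia, lay between 0 and 1.12 CPM in all 9 libraries, on 13 to 17 reads per group, and was not tested. ADM, which codes for the vasoactive peptide adrenomedullin, was at 36.6, 16.9 and 16.3 CPM against 40.2, 29.0 and 26.3 CPM (0.45, adjusted p = 0.289). Without monolayer library 1, its highest monolayer value, ADM passed at 0.94 (adjusted p = 0.0231). ERO1L, an oxidase for disulfide bonds, was at 0.38 (adjusted p = 0.269), and ANKRD37, at under 2 CPM in both groups, at -0.93 (adjusted p = 0.205).

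Because many steps are served by several isozymes, the balance between partners was also described, as the share of the first gene in the summed length-scaled level (RPKM) of a pair. HK2 made up 3.85 ± 1.79% (SD, n = 3) of HK2 plus HK1 in the monolayer and 22.9 ± 4.67% in the ALI controls, so HK1 stayed the larger part. ALDOC went from 1.80 ± 0.192% of the aldolase pair to 5.42 ± 0.935%, and ENO2 was a trace of the enolase pair in both, at 0.452 ± 0.0547% and 0.0890 ± 0.0174%. PFKP went from 59.6 ± 1.11% to 53.8 ± 1.73% of the phosphofructokinase pair PFKP plus PFKL.

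The transporter and oxygen sensor pairs were described in the same way. SLC16A3 was 70.9 ± 5.12% of the MCT4 plus MCT1 pair in the monolayer and 37.1 ± 15.4% in the ALI controls, where library 2 was at 19.5%. SLC2A3 was 7.42 ± 3.45% of the GLUT3 plus GLUT1 pair against 2.13 ± 0.999%. EGLN3 went from 24.3 ± 11.05% of EGLN3 plus EGLN1 to 64.3 ± 11.1%, thus from the smaller to the larger partner. PFKFB4 went from 42.4 ± 2.43% to 25.5 ± 4.94% of the PFKFB4 plus PFKFB3 pair, and BNIP3L from 57.3 ± 4.86% to 73.7 ± 8.85% of BNIP3L plus BNIP3. LDHB was at 37.7, 34.1 and 34.7% of the lactate dehydrogenase pair in the monolayer and at 16.6, 57.0 and 20.3% in the ALI controls, which lay on both sides. PFKM was 25.6 ± 2.71% of PFKM plus PFKL in the monolayer and 41.5 ± 13.4% in the ALI controls. The groups did not overlap for 10 of 11 pairs, LDHB with LDHA being the exception. For single genes the share without overlap was 57.3% over all genes, and no such share was computed for other gene pairs. With 3 libraries against 3 the two-sided exact permutation test cannot go below 0.1, which those 10 reached (Benjamini-Hochberg 0.2 over 22 tests), so no pair could pass.

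**Figure D3:**
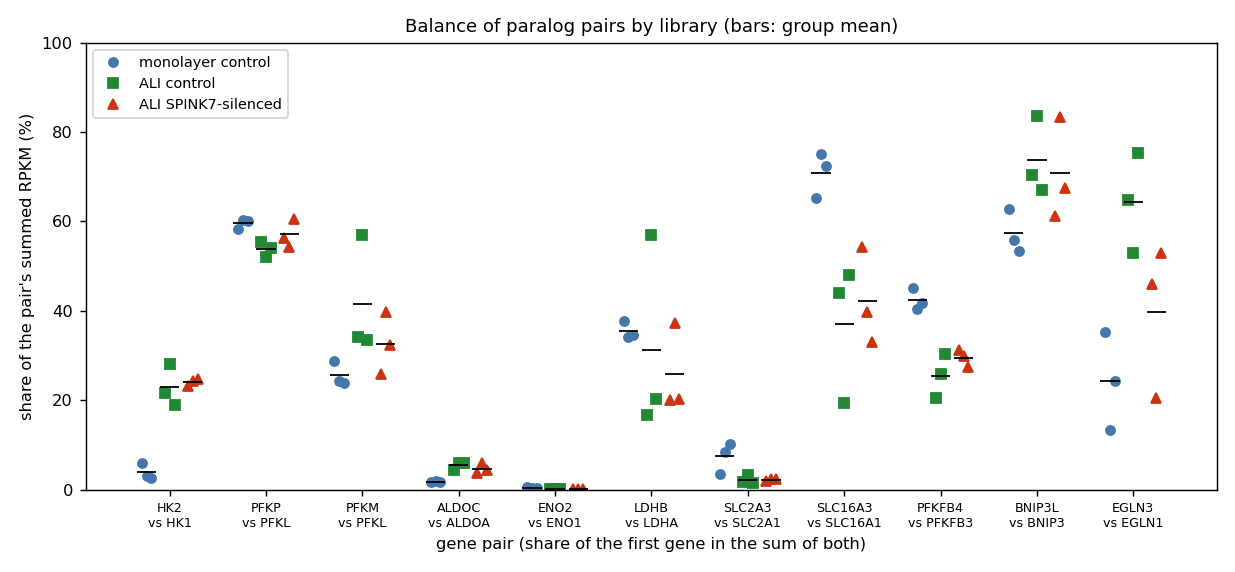
Share of the first gene (percent of the summed RPKM) in 11 gene pairs in each of the 9 libraries, with group means as bars. For HK2, ALDOC and EGLN3 the ALI control libraries lie above the monolayer, and for SLC16A3, SLC2A3 and PFKFB4 below it; for LDHB 1 ALI control library, at 57.0%, stands far above the other two.

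The second comparison set ALI silenced against ALI control and asks whether silencing SPINK7 changes these genes in differentiated cells. No member passed: 0 of 38 by edgeR's quasi-likelihood test, and also 0 by DESeq2 and by limma-voom, where 0.929% of all genes passed by edgeR. At an unadjusted p under 0.05 there was 1, CA12, where 9.16% of all genes were. The smallest adjusted p of any member was 0.499, and the median log2 fold change was 0.06, beside 0.01 for all genes. For 21 of the 38 members the 95% interval of the fold change lay within 2-fold in either direction, as for 53.0% of all genes. The intervals of the other 17 do not exclude a change of 2-fold. Over the same libraries 4 of 10 squamous differentiation genes (KRT1, KRT10, LOR and FLG) fell, where 0.703% of all genes did. The other 6 did not pass, with log2 fold changes from -1.33 (SPRR1A) to 0.28 (TGM1). Without both ALI libraries numbered 2, 8 of the 10 fell, where 3.31% of all genes did. The summed level of that list was 1871 to 2321 CPM in the silenced libraries against 13123, 4459 and 12385 CPM in the controls. The 8 genes of a proliferation list summed to 499, 67.0 and 507 CPM in the silenced libraries and to 218, 111 and 233 CPM in the controls. Library 2 was lowest in both, and most of its sum was PCNA (48.3 CPM in silenced and 89.0 CPM in control cells). PCNA alone of the list was highest in control library 2. Of the proliferation list 0 passed on silencing, and 4 rose without both ALI libraries numbered 2, where 2.17% of all genes did. MKI67 was at 106, 0.893 and 74.8 CPM in the silenced libraries and at 39.6, 0.757 and 42.1 CPM in the controls.

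Among the enzymes the log2 fold changes on silencing lay between -0.22 (LDHB) and 0.55 (PFKP). HK2 was close to its control level (0.11, 95% interval -0.46 to 0.69, adjusted p = 0.906). GAPDH was at 2926, 1804 and 2323 CPM in the silenced libraries (-0.07, 95% interval -0.73 to 0.58). LDHA was at 1987, 600.2 and 2280.4 CPM, with library 2 low as in the controls (0.15, 95% interval -1.0 to 1.30). For HK2 and GAPDH these intervals leave out a change of 2-fold, while that of LDHA does not.

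The transporters and flux regulators lay between -0.10 and 0.47. SLC2A1 was at 797, 508 and 662 CPM in the silenced libraries (0.18, 95% interval -0.64 to 0.99), and all 4 transporters had intervals within 2-fold. PDK1 was at 18.1, 10.2 and 19.4 CPM (-0.10, 95% interval -0.86 to 0.66). HIF1A was at 281, 409.9 and 321 CPM, overlapping the controls (-0.52, SE 0.29, adjusted p = 0.654).

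The most distant estimates were those of EGLN3 and ANKRD37. EGLN3 was at 14.1, 3.98 and 20.5 CPM in the silenced libraries against 33.2, 16.1 and 36.2 CPM in the controls, and 1 silenced library lay inside the control range. Its log2 fold change was -1.16 with a 95% interval from -2.39 to 0.07 (adjusted p = 0.569), which includes both no change and a large fall. In share of the pair with EGLN1, EGLN3 was at 46.1, 20.6 and 52.9% against 64.8, 53.0 and 75.3%, groups that just do not overlap (two-sided exact permutation p = 0.1, Benjamini-Hochberg 0.2). ANKRD37 was at 2.06, 0.893 and 1.05 CPM against 1.07, 0.378 and 0.634 CPM (0.93, 95% interval -0.30 to 2.17).

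ADM was the member whose silenced and control libraries did not overlap in level, where 12.1% of all genes did not. It was at 53.6, 46.6 and 54.6 CPM against 40.2, 29.0 and 26.3 CPM (0.70, SE 0.32, adjusted p = 0.554). CA12 was at 105, 72.5 and 83.0 CPM against 133, 90.1 and 174 CPM (-0.60, unadjusted p = 0.0404). MXI1 was at 27.5, 59.3 and 32.7 CPM against 60.01, 82.1 and 49.8 CPM (-0.68, adjusted p = 0.547). Without both ALI libraries numbered 2 MXI1 was lower (-0.87, adjusted p = 0.0236), the 1 member called in that fit, where 5.48% of all genes passed and 3.31% fell. The rest, VEGFA (49.9, 167 and 49.2 CPM), BNIP3 (41.9, 19.7 and 49.8 CPM) and NDRG1 (709, 786 and 587 CPM) among them, overlapped the controls. Both comparisons use the same ALI control libraries, so a high or low control library moves them in opposite directions. MXI1 had 0.77 in the first and -0.68 in the second, and EGLN3 2.93 and -1.16. Without both ALI libraries numbered 2 these were 0.55 and -0.87 for MXI1 and 3.20 and -1.01 for EGLN3. The part of the shared libraries in these opposite signs was not tested.

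ALI library 2 was low for the enzymes as a block, in control and silenced cells alike. Their summed level in ALI control was 8799 CPM in library 1, 5415 CPM in library 2 and 10084 CPM in library 3. In ALI silenced it was 10916, 5057 and 9495 CPM in the same order. The monolayer libraries had 7548, 10158 and 10003 CPM. In the controls 14 of 16 enzymes were lower in library 2 than in both other libraries (45.4% of all genes), and in the silenced cells 15 of 16 (4998 of 12806 genes). All but PFKM and LDHB were so in both groups, 14 of 16 where 26.9% of all genes were. Relative to the mean of libraries 1 and 3 the median log2 ratio of the enzymes was -0.89 in the controls and -0.78 in the silenced cells, against -0.05 and -0.02 for all genes.

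ALDOA was at 751, 209 and 818 CPM in the control and 1165, 359.7 and 758 CPM in the silenced libraries, and GPI at 209, 67.98 and 230.0 CPM and 342, 95.9 and 252 CPM. Library 2 was also lowest in both groups for SLC2A1, PFKFB3, PFKFB4, PDK1, CA12, EGLN3, P4HA1, PLOD2 and ANKRD37. It was the highest in both for VEGFA, HIF1A, MXI1 and KDM3A, 4 of 38 members beside 25.5% of all genes. VEGFA and most glycolytic enzymes thus lay on opposite sides in the same libraries, and the cause was not tested. The labels name no difference between these libraries and the others. The summed epithelial identity list, most of it KRT5 and KRT14, was also lowest in library 2 of both groups, as was the summed proliferation list. For the identity list the sums were 31851, 14766 and 40052 CPM in the controls and 46664, 22204 and 36342 CPM in the silenced cells. Not every gene of it followed. In control library 2 SOX2 (7.37, 12.1 and 8.46 CPM) and EPCAM (2.95, 4.16 and 2.64 CPM) were the highest of their group and TP63 was between. In silenced library 2 SOX2 was between and the others lowest. The squamous list was lowest in control library 2 (4459 CPM) but not in silenced library 2 (2133 CPM, between 1871 and 2321 CPM). The part of these cell states in the pattern was not tested.

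**Figure D4:**
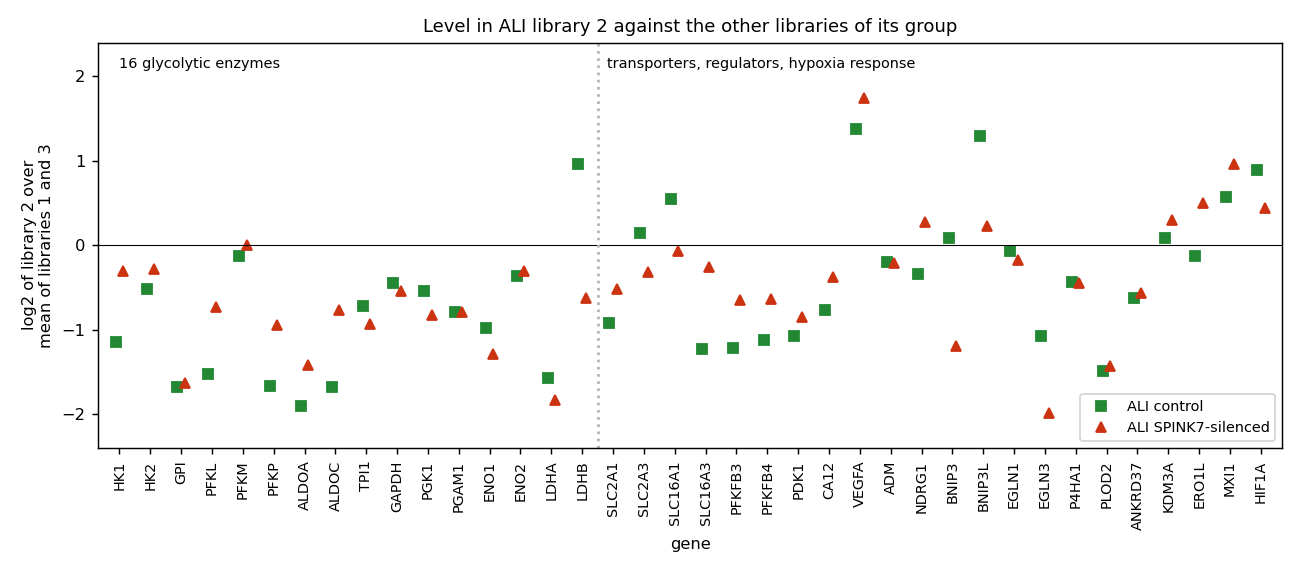
For each tested gene, the log2 ratio of its CPM in ALI library 2 to the mean of libraries 1 and 3 of the same group (squares for control, triangles for silenced; 0.5 CPM added to both), with the 16 enzymes left of the dotted line. Most enzymes lie below 0 in both groups, while VEGFA, MXI1 and HIF1A lie above 0 in both.

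With both ALI libraries numbered 2 left out, 17 members passed between ALI control and monolayer, where 50.7% of all genes did. Of these, 8 rose (24.9% of all genes) and 9 fell (25.7%). The 11 named before were among them, and ALDOC (1.20), LDHA (0.92), NDRG1 (0.64), MXI1 (0.55) and PDK1 (0.50) were added to those that rose and VEGFA (-0.88) to those that fell. In that fit each ALI group has 2 libraries.

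Beyond the 39, 96 further genes of glycolysis, glycogen and the hypoxia response were looked at as lists, 71 of them tested. On differentiation 17 rose and 15 fell, 45.1% of those tested and near the 40.5% of all genes. The transmembrane gene TMEM45A rose from 22.8, 23.2 and 22.9 CPM to 629.5, 1714 and 629.7 CPM (5.43, SE 0.48, adjusted p = 2.40e-05, and 4.78 with ALI control library 2 left out, alone or with ALI silenced library 2). All 3 ALI control libraries were far above the monolayer, with library 2 the highest. CA2, a cytosolic carbonic anhydrase (4.64, adjusted p = 3.17e-05), the nuclear receptor RORA (5.14, adjusted p = 0.00112) and the mitochondrial gene FAM162A (3.13, adjusted p = 3.44e-05) also rose. The value of RORA was 4.07 without ALI control library 2, 4.04 without ALI library 2 of both groups and 6.03 without monolayer library 1.

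PFKFB2, another gene of the PFKFB family, rose from 37.4, 21.4 and 21.6 CPM to 115, 164 and 115 CPM (2.29, SE 0.35, adjusted p = 0.000718), opposite to PFKFB3 and PFKFB4. PPP1R3C, which targets a phosphatase to glycogen, rose as well (2.72, adjusted p = 0.000933). The lysyl hydroxylase PLOD3 fell from 114, 110.4 and 101 CPM to 24.1, 12.9 and 28.0 CPM (-2.32, adjusted p = 0.000358), and so did PLOD1 (-2.21, adjusted p = 0.00232) and P4HA2 (-1.51, adjusted p = 0.00178). PLOD1 and P4HA2 were chosen after their values were seen, as further tested genes of the families of the members that fell. P4HA3, on 17 reads in the monolayer and 1 in the ALI controls, was not tested. PLOD1, PLOD2, PLOD3, P4HA1 and P4HA2, the tested genes of these families, all fell on differentiation, where 20.2% of all genes did. As some were chosen by their values, this is no test of the families. The pyruvate kinase PKM was at 2540.1, 3293 and 3237 CPM against 1696, 586 and 2163 CPM (-1.03, adjusted p = 0.122), and it passed without both ALI libraries numbered 2 (-0.64, adjusted p = 0.0438) and with a replicate block (0.0427).

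In the HIF machinery, ARNT, the partner of the alpha subunits, fell from 54.5, 64.9 and 61.4 CPM to 31.5, 25.2 and 33.6 CPM (-1.0, SE 0.19, adjusted p = 0.00234). EGLN2, the other prolyl hydroxylase, fell from 49.5, 50.4 and 52.4 CPM to 26.3, 23.5 and 23.1 CPM (-1.07, SE 0.26, adjusted p = 0.00939). Of the 3 EGLN genes, then, EGLN3 rose, EGLN2 fell and EGLN1 did not pass. EPAS1, which codes for HIF-2 alpha, had a log2 fold change of 0.35 (adjusted p = 0.183). VHL (-0.51, adjusted p = 0.109) and HIF1AN (-0.58, adjusted p = 0.0845) did not pass either, though VHL did without ALI control library 2 (0.0252) and HIF1AN without ALI control library 3 (0.0409).

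On silencing, 1 of the 71 passed (1.41%), where 0.929% of all genes did. That gene was TMEM45A. It was at 80.7, 85.0 and 139 CPM in the silenced libraries against 629.5, 1714 and 629.7 CPM in the controls (-3.29, SE 0.43, adjusted p = 0.00806). All 3 silenced values were far below the controls and above the monolayer values. Without ALI silenced library 1 the adjusted p was 0.0601. The change of TMEM45A was -2.63 without ALI control library 2 and -2.52 without ALI library 2 of both groups, and passed in both fits. FAM162A was at 85.8, 101 and 131 CPM in the silenced libraries against 167, 312 and 174 CPM (-1.04, adjusted p = 0.133), and passed by DESeq2's Wald test (0.0181).

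The deposited tables list 65 transcript rows for the 39 genes, and 17 genes have more than 1. Counts of single rows shifted between libraries in ways the gene sums did not. For SLC16A3 the row that starts at 80186887 held 468, 0 and 142 reads in the ALI controls, so only sums per gene are compared here. For MXI1 the row with the start farthest downstream, at 111985762 on chromosome 10, held 349 and 357 reads in ALI control and ALI silenced library 2 against 28 to 123 in the other ALI libraries. The MXI1 row that starts at 111967363 held 138 and 506 reads there, against 251 to 369 in the other ALI libraries. These reads are not scaled to library size and are given as a description only.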

How the data were processed

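RNA was sequenced in 9 libraries, 3 per group as the labels give them. Per the submitters' processing notes the tools included STAR 2.4.2a, Bowtie and MACS2, with no role stated for any, and the genome build was hg19. Which program counted reads, on which annotation and whether by strand is not given in the sources used here. Antisense overlap may thus add reads to a gene. The authors deposited, per the file headers, a read count and an RPKM value (a count scaled to transcript length and sequencing depth) for each of 29800 transcript rows. The deposited counts are whole numbers and not normalized. The names of the deposited ALI tables speak of day 7 and number some libraries otherwise; groups and numbers here follow the labels.

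Rows were summed per gene and chromosome. For tests of counts, edgeR 4.0.16 was run under R 4.3.3 with TMM scaling, filterByExpr (12806 genes kept), a robust quasi-likelihood fit over the 3 groups (6 residual degrees of freedom) and Benjamini-Hochberg adjustment over all genes kept within a contrast, with a threshold of 0.05. CPM use the TMM-scaled library size, and 95% intervals use the SE with the total (residual plus prior) degrees of freedom of the fit, 10.1 to 10.2 for the 38 members tested. RPKM was used to compare levels between genes, in the shares of gene pairs. Scripts were tested on simulated data.

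The 39 genes, the further lists and the tests were chosen with earlier results of these data known. Named in full were the members that passed in either contrast (at most 12 by absolute change on differentiation) and HIF1A, GAPDH, LDHA, SLC2A1, HK2, CA9, CA12, VEGFA, PDK1, EGLN3, BNIP3 and NDRG1. Of the further genes these were the ones that passed on silencing (at most 6), the 8 with the greatest change on differentiation among those of at least 5 CPM in a group, and PKM, EPAS1, ARNT, VHL, HIF1AN and EGLN2. Of these, 1 is not reported here. No row of the mitochondrial genome was found under the symbols listed for it. Alternatives were DESeq2 1.42.0 (size factors and Wald test), limma 3.58.1 (voom), other low-count filters, fits of 2 groups, without each library, without both ALI libraries numbered 2, with monolayer libraries 2 and 3 summed, and with a replicate block.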

Additional observations from a re-analysis of the deposited data

How the results depend on the processing

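Of 18 alternatives, the members' count on silencing (0) was 1 without both ALI libraries numbered 2 and 0 in the others, with 0 in every fit that left out 1 library. On differentiation the members' count (11) was 17 without both and 8 to 13 without any 1 library. The members that rose (3) were 8 without both, 6 by DESeq2's Wald test and 2 to 5 without 1 library (5 without ALI control library 2), and those that fell (8) were 6 to 9. HK2, ENO2, SLC2A3, SLC16A3, PFKFB4, EGLN3, P4HA1 and PLOD2 passed in all 18. Over all genes the silencing count (119) was 59 in a fit of the 2 groups, 708 without both libraries numbered 2, 79 with monolayer libraries 2 and 3 summed, 415 by DESeq2's Wald test and 28 to 236 without 1 library. The differentiation count (5190) was 6551 without both, 5791 by DESeq2's Wald test and 3580 to 5478 without 1 library. Of the further genes, those that passed on silencing (1) were 3 without both, 5 by DESeq2's Wald test and 0 to 2 without 1 library, and those on differentiation (32) were 40 without both, 34 by DESeq2's Wald test and 23 to 33 without 1 library. The cause of these differences was not tested. No call turned its sign. Among members that did not pass, the sign turned in at least 1 alternative for 22 of 38 on silencing and 8 of 27 on differentiation.

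The replicate numbers of the labels are shared by the groups, but libraries of the same number did not deviate together throughout: correlations of their deviations were 0.49, 0.58 and -0.01 between ALI control and ALI silenced, -0.16, -0.22 and -0.01 between ALI control and monolayer, and -0.16, -0.19 and 0.13 between ALI silenced and monolayer. The labels do not say whether libraries of the same number share anything beyond it. With the number as a replicate block, 12 members passed on differentiation (3 rose, 9 fell) and 0 on silencing, beside 5132 and 176 of all genes, and 33 and 1 of the further genes.

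With 3 libraries a group, the 95% intervals of 17 members on silencing, EGLN3, ANKRD37 and LDHA among them, reached past 2-fold in a direction. ENO2, ANKRD37 and CA9 rest on few reads. Counting of reads shared with pseudogenes or copies is unknown, and the RPKM shares take the authors' transcript lengths as given.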

Other observations

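Among the further pathway genes, a pair chosen after their values were seen moved on differentiation and had silenced libraries on the monolayer side of the controls. The pair does not stand alone: ARNT, PGM2 and FAM162A did the same without overlap. The silenced libraries of PDK3 lay on the other side of the controls, away from the monolayer. Over all genes, silenced and control libraries did not overlap for 12.1%. DDIT4, a stress-induced inhibitor of mTOR signalling, fell from 444, 453 and 432 CPM in the monolayer to 176, 210.1 and 171 CPM in the ALI controls (log2 fold change -1.25, SE 0.22, adjusted p = 0.00147). In the ALI silenced libraries it was at 354, 412 and 273 CPM, all above the controls, and did not pass on silencing (0.90, SE 0.22, adjusted p = 0.0970). SLC16A7, the lactate and pyruvate carrier MCT2, rose from 0.354, 0.202 and 0.319 CPM to 3.75, 6.43 and 1.48 CPM (3.65, SE 0.62, adjusted p = 0.00135, and 3.06 without ALI library 2 of both groups). Its silenced libraries were at 0.747, 0.893 and 0.468 CPM, all below the controls, and it did not pass on silencing either (-2.41, SE 0.56, adjusted p = 0.0856). Each passed on silencing in 2 of 18 alternatives. Both contrasts share the ALI control libraries, so these are not independent observations.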
